A study of Sus scrofa with 35 samples.

Results

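Betacellulin (BTC), heparin-binding EGF-like growth factor (HBEGF) and the ERBB receptors EGFR, ERBB2, ERBB3 and ERBB4 were examined in longissimus dorsi, the long muscle of the back, in pigs held at thermoneutral temperature (TN) and in pigs under heat stress (HS). Members were the array probes whose gene name in the scanner files was one of these 6 symbols, whatever the case of the letters. This rule found 7 probes for 4 of the 6 genes, among 11408 genes that carried a symbol on the array. BTC, HBEGF and EGFR had 2 probes each, ERBB3 had 1, and no probe carried the name ERBB2 or ERBB4. The set was chosen by the HS minus TN differences of these same arrays, in which BTC was lower in HS. Differences between HS and TN are therefore given for all members as a description, with no test, and tests are given for breed and for the breed by temperature interaction.

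RNA of 35 muscle samples was hybridised to 1-colour porcine Agilent arrays, 1 sample per array. The animals were growing castrated male pigs of Creole breed, of Large White breed, or F1 crosses of the pair, and all entered the climatic room at the same age. By the labels TN pigs were at 24 °C and HS pigs at 30 °C, while the growth protocol speaks of 32 °C over 5 days. Each of the 6 groups of breed and condition held 6 arrays except F1 HS, which held 5. Since TN pigs were slaughtered before the room was warmed and HS pigs some days later, the day of slaughter, the pen and the older age of HS pigs cannot be told apart from temperature. The study also reports that HS pigs ate less in the heat than before it, which cannot be told apart from temperature either. Pigs of a breed came from a few groups of littermates which the labels do not identify, so p-values treat pigs as independent and measure only the spread between these samples. Per array, 58.4% to 75.9% of probes exceeded background clearly, and the brightness of the unnormalised arrays was 0.18 ± 0.07 (SE) log2 higher in HS than in TN. All 7 member probes were well above background on all 35 arrays, and none was saturated. Marker genes of muscle fibres marked the tissue as labelled, with a mean level of 9 of them between 17.91 and 18.35 log2 on every array.

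BTC and HBEGF belong to the EGF family of ligands. They are made as membrane-bound precursors, released by metalloproteases of the ADAM family, and bind EGFR and ERBB4. EGFR and ERBB4 have an active kinase and bind ligand, ERBB2 has no known ligand and serves as the partner of the other receptors, and ERBB3 binds neuregulins but has a very weak kinase and signals through its partner. Paired receptors feed the RAS-MAPK and the PI3K-AKT routes. In muscle, the neuregulins and their receptors are best known from the neuromuscular junction, Schwann cells and muscle spindles.

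The probes are shown because their sequences decide what counts as an independent measurement. The first 30 of the 60 bases of each distinct probe are given 5′ to 3′ as in the scanner files. No part is set in capitals, since no motif was searched.
BTC, probe A_72_P321068: gatgacgatgtgtcctatgctgggttttag
BTC, probe A_72_P410733: ccttgaaatgggattatatcaaatgattca
HBEGF, probes O9806 and A_72_P035756: tgttcaggtaccacaggagaggaggttatg
EGFR, probes A_72_P223517 and O1176: atatgaaatttgattttgaaagtgatgaca
ERBB3, probe A_72_P049486: caggggtaacgacggttccacttttctaaa
The HBEGF probes were identical over all 60 bases, and so were the EGFR probes, so each pair was 1 sequence spotted at different places. The BTC probes were different sequences, with the same base at 11 of 60 positions. By their annotation alone they are separate readings of the gene, whereas the HBEGF and EGFR pairs show the spread between spots. Probe positions in the genome were not mapped here. In the order of genes of the Sscrofa11.1 reference table, the EGF-family genes EPGN, EREG and AREG stand directly before BTC, and PARM1 follows it. None of those 3 ligand genes had a kept probe.

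The level of BTC was lower in HS than in TN pigs with both probes. On the log2 scale of normalised intensity, probe A_72_P321068 measured 10.60, 10.93 and 11.82 (lowest, median and highest of 6) in Creole TN pigs. In Creole HS pigs it measured 9.45, 10.36 and 10.83. The highest Creole HS pig thus lay above the lowest Creole TN pig. In F1 TN pigs the values were 10.91, 11.45 and 11.96, and the 5 F1 HS pigs stood at 10.38, 9.42, 11.22, 10.16 and 10.84. In Large White TN pigs they were 11.43, 11.69 and 11.99, against 10.45, 11.15 and 11.72 in Large White HS pigs. The conditions overlapped in each breed with this probe, although 16 of 17 HS pigs lay below the TN mean of their own breed.

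Probe A_72_P410733 gave the wider separation. Its lowest, median and highest values were 10.14, 11.16 and 11.45 in Creole TN pigs against 8.89, 9.79 and 10.51 in Creole HS pigs. The F1 TN values were 10.30, 10.62 and 11.27, and the 5 F1 HS pigs stood at 9.67, 8.74, 9.46, 9.56 and 9.91. The F1 conditions did not overlap with this probe, whereas those of the other breeds did. Large White TN pigs had 10.30, 10.68 and 11.21, and Large White HS pigs 9.28, 9.98 and 10.81. Again 16 of 17 HS pigs lay below the TN mean of their breed.

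Adjusted for breed, HS minus TN for BTC was -0.80 ± 0.15 (SE) log2 with probe A_72_P321068, a 1.74-fold difference (n = 17 HS and 18 TN). With probe A_72_P410733 it was -1.07 ± 0.17 log2, a 2.10-fold difference. Among the 41517 kept probes, 49 had a larger fall than the first of these and 18 a larger fall than the second, while the median of all kept probes was -0.022 log2 and the lowest 1% lay below -0.46. In that comparison 3 of the 7 member probes, both of BTC and that of ERBB3, were among the 16.0% of kept probes with an adjusted p below 0.05. The set was chosen by these same differences, so this count and the ranks describe the choice, are no test of it, and nothing is read from them. Of all calls 48.2% were higher in HS, against 37.5% with scaling to the 75th percentile and 86.6% with scaling to spike-in controls, and the BTC difference with the first probe was -0.84 and -0.66 log2 under these scalings.

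The size of the BTC difference varied between the slides that carried the arrays. With probe A_72_P321068 the HS minus TN difference was -1.30, -0.049, -1.10 and -0.59 log2 on the slides 1 to 4, each with 4 TN and 4 HS pigs, and -1.28 on slide 5 with 2 TN pigs and 1 HS pig. With probe A_72_P410733 it was -1.29, -0.44, -1.62, -0.76 and -1.63. All values were thus below 0, but on slide 2 the means of the first probe were nearly equal. These means were not adjusted for breed, and slides held pigs of several groups in unequal numbers. On slide 2 the Large White HS pigs measured 11.72 and 10.96 against 11.90 in TN, and the F1 pigs 11.22 in HS against 11.57 in TN. The Creole HS pig, at 10.83, lay between the Creole TN pigs at 10.85 and 10.61. With slide as a block in the model the differences were -0.81 and -1.09 log2.

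**Figure D1:**
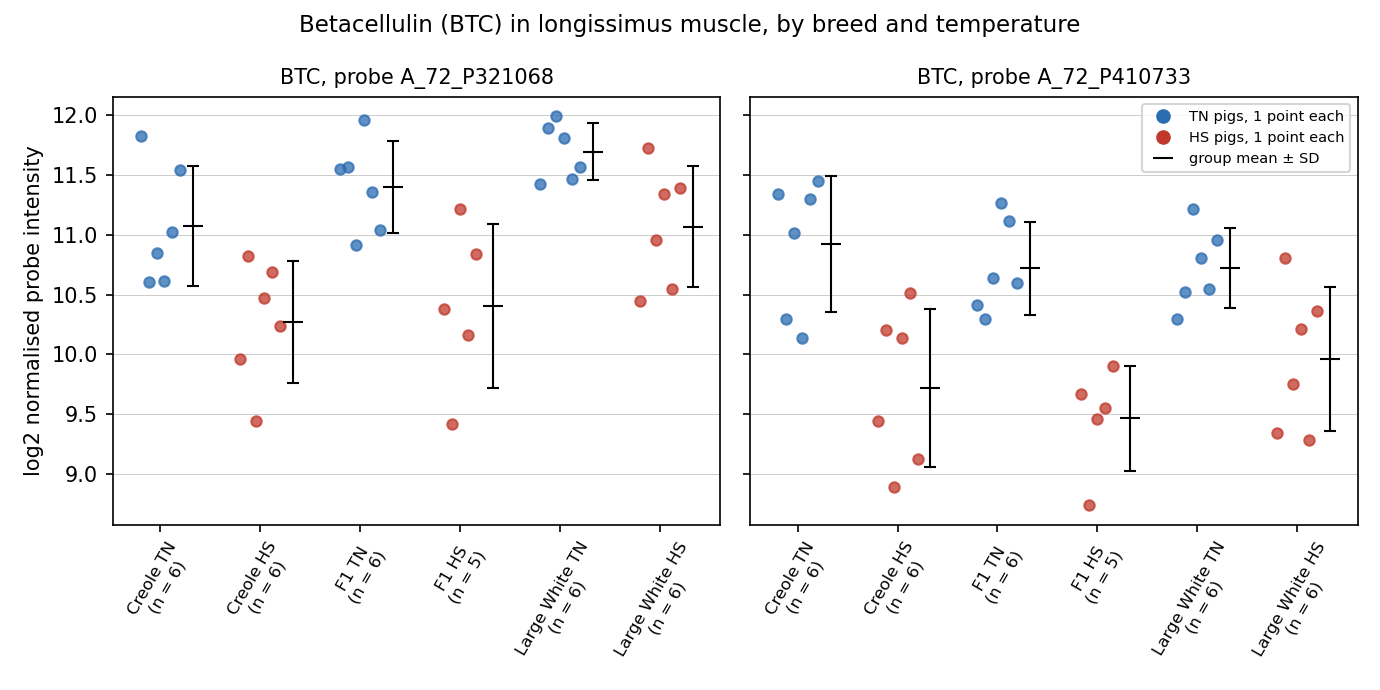
Log2 normalised intensity of BTC in each pig (points, blue for TN and red for HS) for both BTC probes in the 6 groups of breed and condition, with the mean ± SD of each group in black. The F1 HS pigs lie between 8.74 and 9.91 with probe A_72_P410733, all below the F1 TN pigs, while the conditions overlap in the other breeds and with the other probe.

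Within breeds, HS minus TN for probe A_72_P321068 was -0.80 ± 0.27 (SE) log2 in Creole, -0.995 ± 0.28 in F1 and -0.63 ± 0.27 in Large White pigs. For probe A_72_P410733 it was -1.20 ± 0.28, -1.25 ± 0.30 and -0.76 ± 0.28 log2. Whether the breeds differed in this change was tested as an interaction in limma, with 1 mean per group. The adjusted p was 0.97 for the first probe and 0.96 for the second. The change in F1 minus the change in Large White, for example, was -0.49 log2 with a 95% interval from -1.33 to 0.35 for the second probe, so that sizeable differences between breeds were not detectable at this number of pigs. No member probe and 0% of the kept probes passed the interaction test. At an unadjusted p below 0.05, no member probe passed it and 1593 kept probes did.

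The order of the group means depended on the probe. With probe A_72_P321068 the means ran from 11.69 in Large White TN over 11.40 in F1 TN, 11.08 in Creole TN, 11.07 in Large White HS and 10.40 in F1 HS to 10.27 in Creole HS. With probe A_72_P410733 they ran from 10.92 in Creole TN over 10.72 in both Large White TN and F1 TN, 9.96 in Large White HS and 9.72 in Creole HS to 9.47 in F1 HS. The ranges of neighbouring groups overlapped throughout. The only gaps between neighbours larger than the pooled SD within groups, 0.48 and 0.51 log2, were 0.66 between Large White HS and F1 HS with the first probe and 0.76 between F1 TN and Large White HS with the second.

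Creole pigs had less BTC signal than Large White pigs with one of the BTC probes only. With probe A_72_P321068 Creole minus Large White was -0.71 ± 0.19 (SE) log2, a 1.63-fold difference with a 95% interval from -1.08 to -0.33 log2 (limma, adjusted p = 0.024, 12 pigs per breed). Across both conditions its Creole values ran from 9.45 to 11.82 and its Large White values from 10.45 to 11.99. This was the only one of 7 member probes called, against 3.64% of all kept probes. The call was lost without the Creole HS pig of replicate 3, the lowest of its group (adjusted p = 0.051), and in the TN arrays alone (-0.62 log2, adjusted p = 0.22). Probe A_72_P410733 differed by -0.020 ± 0.20 log2 with a 95% interval from -0.43 to 0.39 (adjusted p = 0.98).

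That the BTC probes differed from each other by breed was tested directly, after their values had been seen. On each array the value of probe A_72_P410733 was subtracted from that of A_72_P321068. The mean of this difference was 0.15 ± 0.33 (SD, n = 6) log2 in Creole TN and 0.55 ± 0.32 in Creole HS pigs. It was 0.97 ± 0.27 in Large White TN and 1.11 ± 0.12 in Large White HS pigs, with F1 pigs between them at 0.68 ± 0.44 in TN and 0.94 ± 0.48 in HS (n = 5). In TN pigs the highest Creole value, 0.48, lay below the lowest Large White value, 0.61, whereas in HS pigs the breeds overlapped, with a highest Creole value of 1.11 and a lowest Large White value of 0.92. Creole minus Large White was -0.69 ± 0.11 (SE) log2, with -0.82 in TN and -0.56 in HS pigs, and a two-sided permutation test of the breed labels within condition gave p = 1e-05, the smallest that 100000 resamples allow. The permutation exchanged single pigs, although pigs of a breed came from a few groups of littermates. This p therefore overstates the independent evidence and does not extend to the breeds beyond these pigs. Over the 35 arrays the probes had a Pearson r of 0.80, against 0.99 for the identical HBEGF spots and 0.97 for the identical EGFR spots. The SD of the difference between probes was 0.45 log2 for BTC, 0.087 for HBEGF and 0.061 for EGFR.

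**Figure D2:**
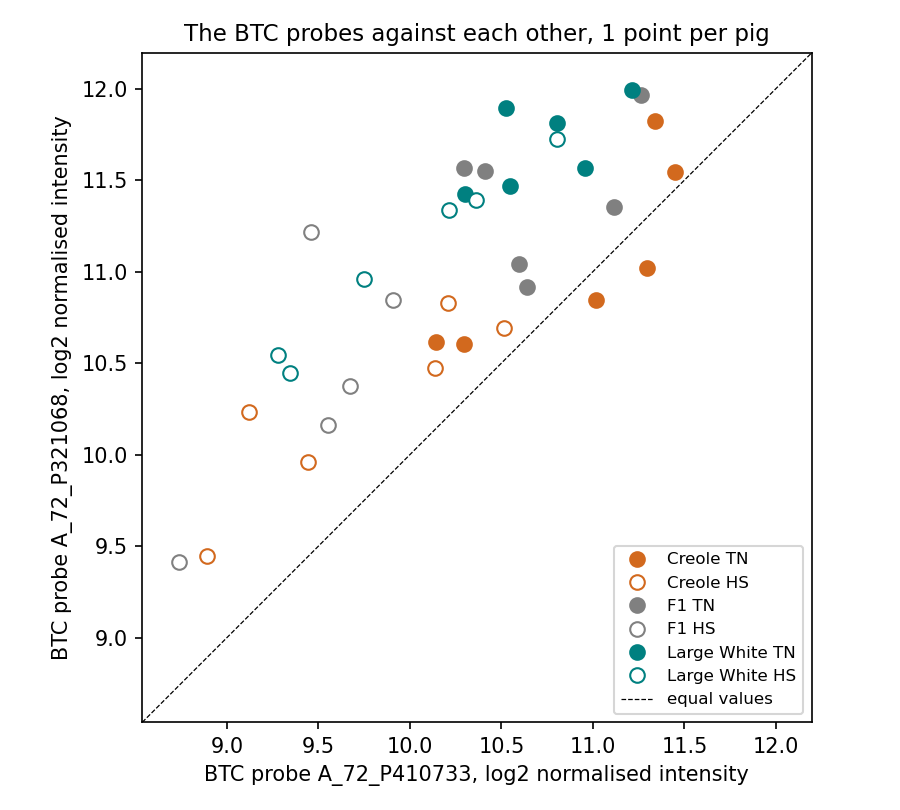
Log2 normalised intensity of BTC probe A_72_P321068 (vertical) against probe A_72_P410733 (horizontal), 1 point per pig, coloured by breed, filled for TN and open for HS, with a dashed line of equal values. Creole pigs lie closest to the line (mean difference 0.15 in TN and 0.55 in HS) and Large White pigs farthest above it (0.97 and 1.11).

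F1 pigs were compared with each parent breed and with the midpoint of both. With probe A_72_P321068, F1 pigs differed by -0.47 ± 0.19 log2 from Large White (adjusted p = 0.34), by 0.24 ± 0.19 from Creole (adjusted p = 0.84) and by -0.12 ± 0.17 from the midpoint (adjusted p = 0.95). The corresponding differences with probe A_72_P410733 were -0.24 ± 0.20, -0.22 ± 0.20 and -0.23 ± 0.18 log2, with adjusted p of 0.75, 0.88 and 0.88. None of the 7 member probes passed limma's test at an adjusted p of 0.05 in these comparisons, in which 0.525% of kept probes did for F1 minus Large White, 0.477% for F1 minus Creole and 0.246% for F1 minus the midpoint. At an unadjusted p below 0.05 the member probes passing numbered 3, 0 and 2, and the kept probes 4371, 3685 and 3053 of 41517. The 3 were both spots of the HBEGF sequence and BTC probe A_72_P321068, and the 2 were the same HBEGF spots. These counts therefore hold 1 HBEGF sequence more than once and are not counts of independent members.

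HBEGF, the other ligand, showed no like separation of the conditions. Probe O9806 measured 10.02, 10.40 and 11.19 log2 (lowest, median and highest) in Creole TN pigs and 10.21, 10.72 and 11.18 in Creole HS pigs. F1 TN pigs had 9.79, 11.41 and 11.81, the widest range of the groups, and the F1 HS pigs stood at 11.05, 11.60, 10.56, 10.51 and 10.17. Large White TN pigs had 9.71, 10.13 and 11.01, and Large White HS pigs 9.61, 10.39 and 11.16. The conditions overlapped widely in each breed. HS minus TN was 0.058 ± 0.18 (SE) log2, and 8 of 17 HS pigs lay below the TN mean of their breed.

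Over both conditions HBEGF had its highest mean in F1 pigs, although no difference passed the test. The excess over Creole lay in TN pigs, with means of 11.08 in F1 and 10.47 in Creole with probe O9806. In HS pigs these means were 10.78 and 10.74, and with the other spot 10.73 and 10.76, so the order there depended on the spot. F1 pigs were 0.64 ± 0.22 log2, or 1.56-fold, above Large White pigs, with a 95% interval from 0.19 to 1.09 (limma, unadjusted p = 0.0062, adjusted p = 0.22). They were 0.49 ± 0.19 log2 above the midpoint of the parent breeds (unadjusted p = 0.015, adjusted p = 0.50) and 0.34 ± 0.22 above Creole (adjusted p = 0.74). The other spot of the sequence, A_72_P035756, gave 0.66 ± 0.23 and 0.48 ± 0.20 log2 for the differences from Large White and from the midpoint. A further probe, A_72_P178751, which the files describe as the pig HBEGF precursor without giving the symbol, gave 0.59 ± 0.21 (adjusted p = 0.23) and 0.48 ± 0.18 (adjusted p = 0.47). With the group means removed, it followed probe O9806 with a Pearson r of 0.96 over the 35 arrays, which share their normalisation.

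EGFR, a receptor for both ligands, varied little. Probe A_72_P223517 measured 10.66, 11.12 and 11.48 log2 (lowest, median and highest) in Creole TN pigs and 10.62, 10.87 and 11.17 in Creole HS pigs. The values were 10.52, 11.16 and 11.49 in F1 TN pigs, and the F1 HS pigs stood at 11.12, 10.82, 11.15, 11.45 and 11.25. Large White TN pigs had 10.87, 11.09 and 11.28, and Large White HS pigs 10.59, 11.09 and 11.54. The 6 groups overlapped, and HS minus TN was -0.055 ± 0.09 (SE) log2, with 9 of 17 HS pigs below the TN mean of their breed. The sign of this small difference turned under scaling to spike-in controls (0.094), under median scaling (0.017) and with array brightness as a covariate (0.029). Creole minus Large White was -0.11 ± 0.11 log2 (95% interval -0.33 to 0.11, adjusted p = 0.71), and F1 minus Large White was 0.0044 ± 0.11 (95% interval -0.22 to 0.23, adjusted p = 0.99).

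ERBB3, a receptor for neuregulins, was a little lower in HS. Its probe measured 11.56, 11.87 and 12.10 log2 (lowest, median and highest) in Creole TN pigs and 11.06, 11.54 and 11.82 in Creole HS pigs. It measured 11.47, 11.82 and 12.06 in F1 TN pigs, while the F1 HS pigs stood at 11.78, 11.52, 11.65, 11.66 and 11.76. Large White TN pigs had 11.58, 11.96 and 12.14, and Large White HS pigs 11.17, 11.70 and 11.96. The conditions overlapped in each breed, yet 15 of 17 HS pigs lay below the TN mean of their breed. HS minus TN was -0.24 ± 0.08 (SE) log2, a 1.18-fold difference, and -0.11 log2 under the scaling that moved it most. Within breeds it was -0.35 ± 0.14 in Creole, -0.099 ± 0.15 in F1 and -0.24 ± 0.14 in Large White pigs. Creole minus Large White was -0.077 ± 0.10 (95% interval -0.27 to 0.12, adjusted p = 0.79).

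ERBB2 and ERBB4 were not measured by any probe named for them. Probe A_72_P304494, described in the files as similar to the dog erbB-2 precursor, measured 11.06 ± 0.24 (SD, n = 18) log2 in TN and 10.81 ± 0.23 (n = 17) in HS pigs, and 15 of 17 HS pigs lay below the TN mean of their breed. Its HS minus TN difference, -0.24 ± 0.08 (SE) log2, had the size of that of ERBB3. Creole minus Large White was 0.011 ± 0.09 log2 (adjusted p = 0.98). No level of one probe is set against that of another, since probes differ in how strongly they bind.

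**Figure D3:**
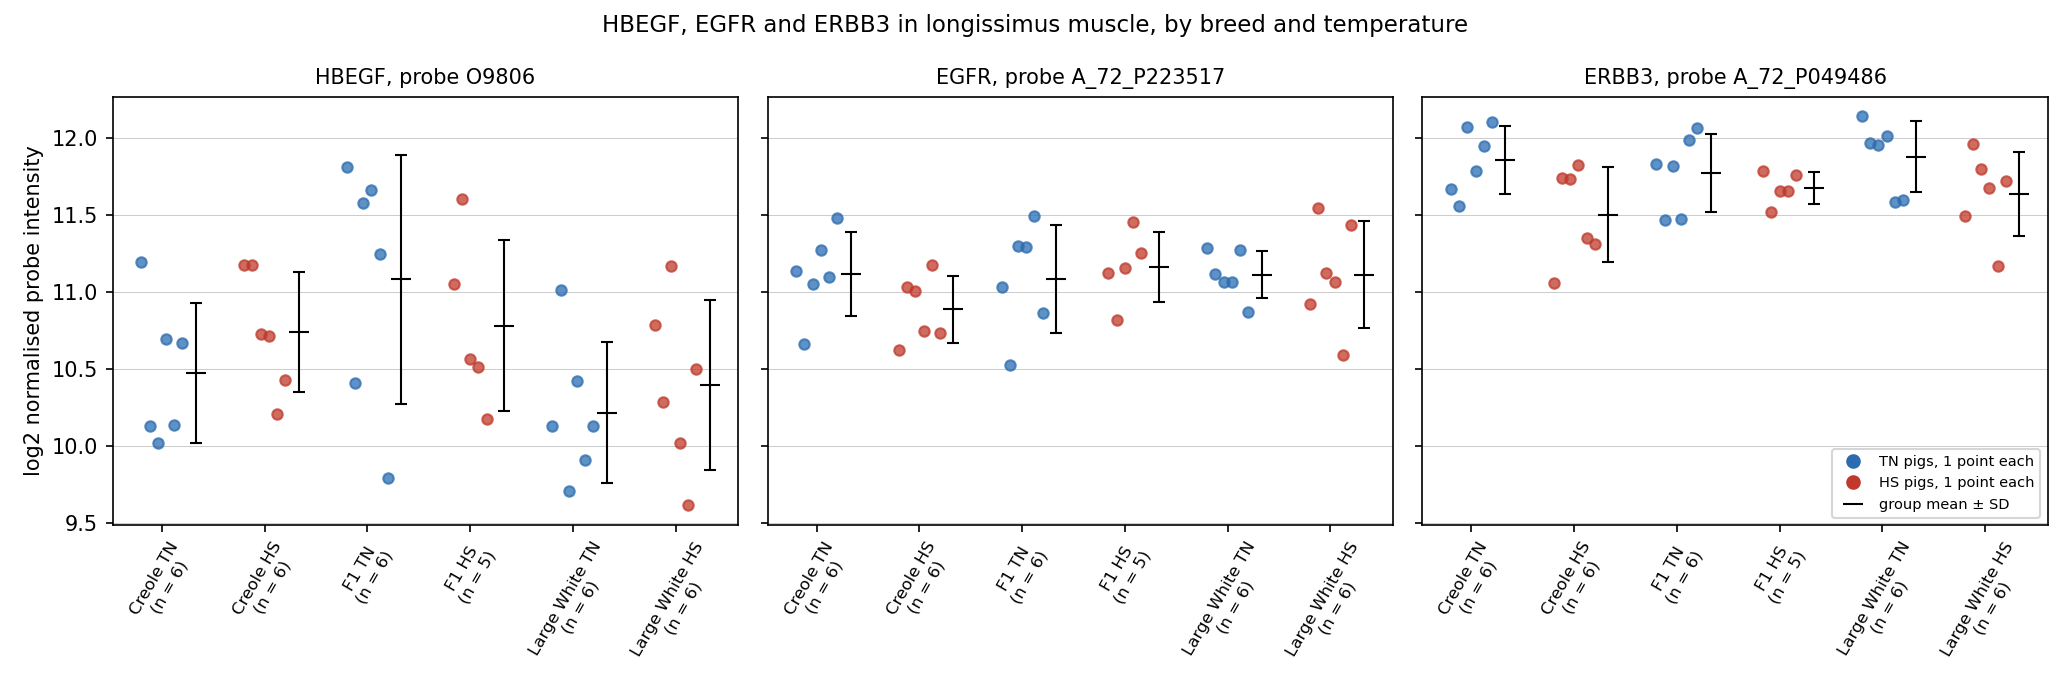
Log2 normalised intensity of HBEGF, EGFR and ERBB3 in each pig (points, blue for TN and red for HS) in the 6 groups, with the mean ± SD of each group in black. HBEGF spreads most within groups, from 9.79 to 11.81 in F1 TN pigs, and the conditions overlap for all 3 genes in each breed.

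**Figure D4:**
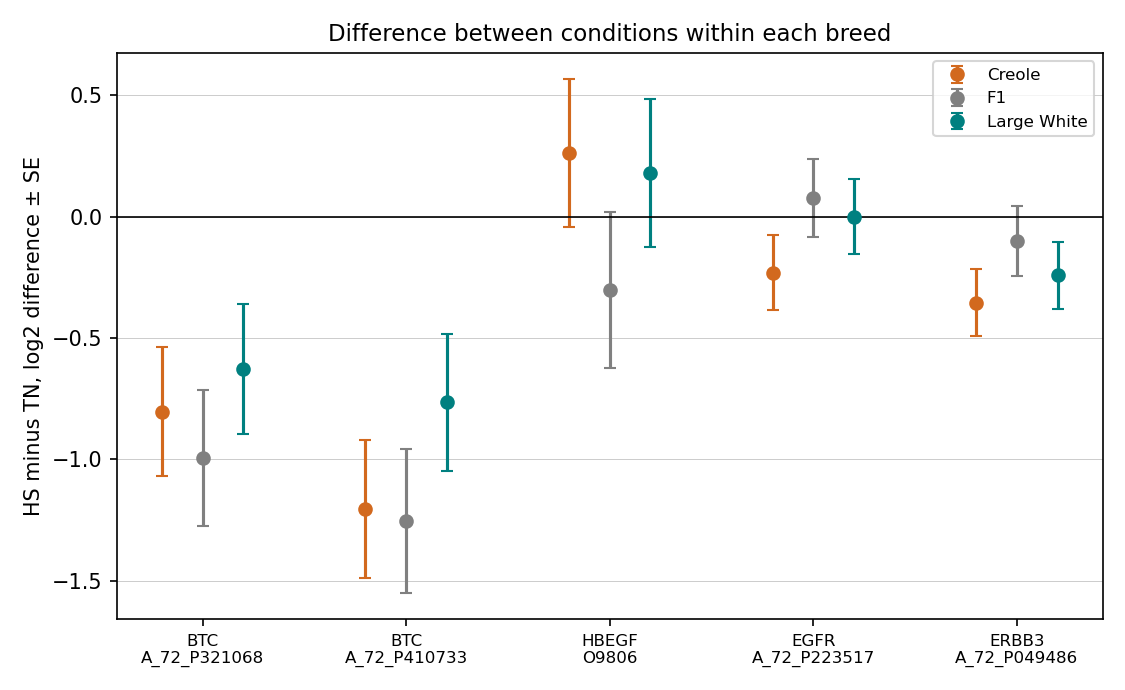
HS minus TN difference in log2 intensity (points) with its SE (bars) within each breed for the BTC probes and the leading probe of HBEGF, EGFR and ERBB3. Both BTC probes lie between -0.63 and -1.25 in all breeds, ERBB3 between -0.099 and -0.35, and HBEGF and EGFR on both sides of 0.

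Within groups, the members did not move as a block. With the group means removed, BTC probe A_72_P321068 had a Pearson r over the 35 arrays of 0.39 with EGFR, 0.19 with ERBB3 and 0.017 with HBEGF. BTC probe A_72_P410733 had 0.56 with EGFR, 0.35 with ERBB3 and -0.058 with HBEGF. EGFR and ERBB3 had 0.52. These are descriptions over arrays that share 1 normalisation. Of 9560 other genes, those closest to BTC probe A_72_P321068 by this measure were GTPBP2 (r = 0.67), ING2 (0.67), DHRS7B (0.67), LYSMD2 (0.66) and GPS2 (0.65). The most opposed were RASA3 (-0.63), CHST8 (-0.62), PUM3 (-0.61), GALT (-0.61) and LIMA1 (-0.61). The median over all genes was 0.030, and the highest 1% lay above 0.53. With the other BTC probe the same genes had r between 0.45 and 0.69 on the positive side, and between -0.49 and -0.80 on the negative side. Without removal of the group means, so that the difference between conditions entered the measure, the closest were MKKS, PRDX4, RPAIN, PYGM and UBE2B at r of 0.72 each, and the most opposed PLA2G16 (-0.77), HOGA1 (-0.74), NES (-0.72), LIMD1 (-0.72) and RBKS (-0.71).

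The other genes of the pathway were taken from 7 lists of 94 genes, of which 67 had a kept probe. The lists were drawn up with earlier results of these data known, a limit on every p-value of a list gene given here and below. With 1 probe per gene, 4 were higher and 5 lower in HS at an adjusted p below 0.05, against 8.48% of 9561 genes called higher and 9.82% called lower. Neither share of the lists was above that of all genes, and the median HS minus TN was -0.0055 log2 for the lists and -0.024 for all genes. Between Creole and Large White 1 list gene was higher in Creole and 0 were lower, against 1.49% and 2.20% of all genes.

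Of 9 listed EGF-family ligands other than the members, 3 were measured, and 2 of these fell in HS with none rising. EGF, the ligand that gave the family its name, measured 11.48, 12.14 and 12.86 log2 (lowest, median and highest) in TN and 11.01, 11.73 and 12.17 in HS pigs. The conditions overlapped, with 14 of 17 HS pigs below the TN mean of their breed. EGF fell by 0.39 ± 0.09 (SE) log2 with its leading probe (limma, adjusted p = 0.0034). Its remaining 4 kept probes were also lower in HS, and 3 of them were called. With scaling to spike-in controls the difference of the leading probe was -0.27 (adjusted p = 0.063). NRG4, a neuregulin that binds ERBB4, measured 8.20, 8.91 and 9.91 in TN and 7.63, 8.23 and 9.36 in HS pigs. It fell by 0.57 ± 0.15 log2 (adjusted p = 0.0095), with 15 of 17 HS pigs below the TN mean of their breed, and differed by -0.40 (adjusted p = 0.12) with array brightness as a covariate. TGFA, another EGFR ligand, differed by -0.056 ± 0.08 log2 and was well above background on 23 of 35 arrays.

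EGF was also the list gene that differed between breeds. Its mean was 12.49 ± 0.24 (SD, n = 6) log2 in Creole TN, 12.07 ± 0.18 in F1 TN and 11.91 ± 0.26 in Large White TN pigs, and 11.91 ± 0.20, 11.85 ± 0.27 (n = 5) and 11.54 ± 0.40 in the HS pigs of the same order. Creole TN pigs, from 12.17 to 12.86, lay above all Large White TN pigs, whose highest was 12.12. Creole minus Large White was 0.47 ± 0.11 (SE) log2 (limma, adjusted p = 0.0088), and 3 of the remaining 4 kept EGF probes passed with differences of 0.36, 0.42 and 0.45. The call was lost with scaling to spike-in controls (0.40, adjusted p = 0.064) and in the TN arrays alone (0.58, adjusted p = 0.052). In this comparison EGF was higher in Creole pigs while BTC probe A_72_P321068 was lower. BTC probe A_72_P410733 did not differ there (-0.020 ± 0.20 log2, limma adjusted p = 0.98). The call of the first BTC probe was itself lost without 1 Creole HS pig and in the TN arrays alone.

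Of the genes for ligand shedding, 1 of 8 measured rose in HS and none fell. ADAM9, a metalloprotease that can release HBEGF, rose by 0.29 ± 0.10 log2 (limma, adjusted p = 0.035), from a TN median of 7.56 to an HS median of 7.79. Its call was lost without any 1 of 11 of the arrays, with adjusted p up to 0.061, and with array brightness as a covariate (0.28, adjusted p = 0.12). ADAM17, the main sheddase of several EGF-family ligands, differed by 0.19 ± 0.11 (adjusted p = 0.23), and ADAM10, a sheddase of BTC, by 0.010 ± 0.10 (adjusted p = 0.96). Of the brakes on ERBB signalling, 1 of 12 measured rose and 1 fell. CBL, the ubiquitin ligase that sends EGFR to degradation, rose by 0.37 ± 0.11 log2 (adjusted p = 0.021), from a TN median of 11.22 to an HS median of 11.49, and only 1 of 17 HS pigs lay below the TN mean of its breed. With array brightness as a covariate CBL differed by 0.21 (adjusted p = 0.25). SOCS5, which lowers the level of EGFR, fell by 0.20 ± 0.05 (adjusted p = 0.0038) with its leading probe, but among its remaining 3 probes 1 had the same sign and none was called. With scaling to spike-in controls SOCS5 differed by -0.049 log2 (adjusted p = 0.73).

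Downstream of the receptors few genes were called. Of 15 measured adaptors and kinases of the RAS-MAPK arm, 1 fell and none rose. ARAF, a RAF kinase, fell by 0.21 ± 0.06 log2 (limma, adjusted p = 0.023), and 2 of its remaining 3 probes passed. Its call was lost with array brightness as a covariate (-0.11, adjusted p = 0.30) and with scaling to spike-in controls (-0.17, adjusted p = 0.074). None of the 11 measured transcriptional targets of ERK was called by limma in either direction, and their differences ran from -0.21 log2 for EGR1 to 0.12 for FOSL1, both early transcription factors.

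Among the called list genes, those of the neuromuscular junction had the largest rises. CHRNA1, the alpha subunit of the acetylcholine receptor of muscle, measured 6.27, 7.30 and 8.13 log2 (lowest, median and highest) in TN and 7.03, 8.19 and 9.31 in HS pigs. It rose by 0.88 ± 0.20 (SE) log2 (limma, adjusted p = 0.0035). CHRNG, the gamma subunit found in fetal and denervated muscle, rose by 0.75 ± 0.17 log2 (adjusted p = 0.0028), from a TN median of 6.73 to an HS median of 7.43. For each, 3 of 17 HS pigs lay below the TN mean of their breed, and each had a single kept probe. The other 5 of 7 measured genes of this list, among them LRP4 and RAPSN, were not called.

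**Figure D5:**
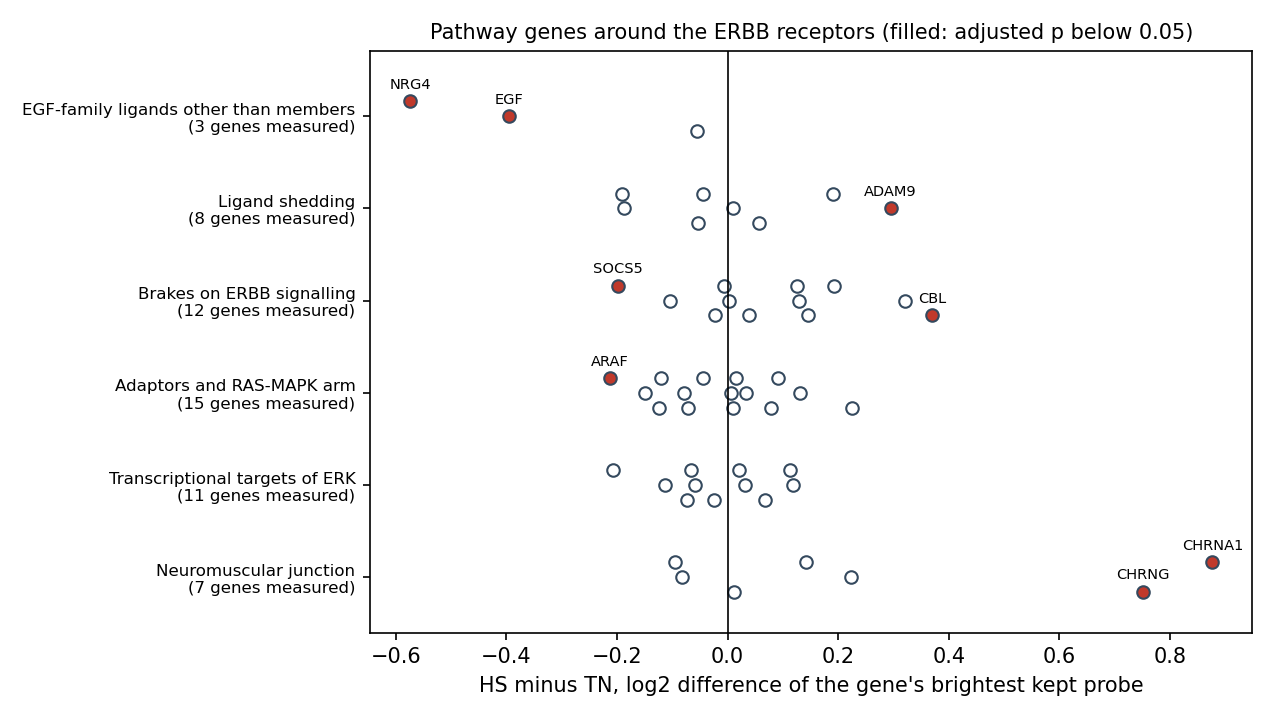
HS minus TN difference in log2 intensity of each measured gene (points) of 6 of the 7 pathway lists, filled where limma's adjusted p was below 0.05. The called genes NRG4, EGF, ARAF and SOCS5 lie below 0, from -0.57 to -0.20, and ADAM9, CBL, CHRNG and CHRNA1 above it, from 0.29 to 0.88.

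Markers of some cell types, but not of all those listed, differed in the same comparisons. A lower level in whole muscle can come from fewer cells of a type or from less RNA per cell, which cannot be told apart here. The mean of 8 leukocyte markers ranged from 8.08 to 10.44 log2 in TN and from 9.24 to 10.76 in HS pigs, 0.54 ± 0.18 (SE) higher in HS, and 3 of the 8 were called higher. With group means removed, its r over the 35 arrays was -0.38 with BTC probe A_72_P321068, -0.68 with EGFR and -0.45 with ERBB3. The mean of 9 muscle fibre markers differed by -0.11 ± 0.03 log2 in HS, with r of 0.17 with BTC, 0.58 with EGFR and 0.62 with ERBB3. The mean of the 2 measured red blood cell markers differed by -0.72 ± 0.12, with HBB called lower (-1.21 ± 0.22) and ALAS2 not called (-0.23 ± 0.10). The mean of 6 endothelial markers differed by -0.19 ± 0.07, with only VWF called, lower in HS, and TEK of the opposite sign. The red blood cell and endothelial means had r of 0.24 and 0.14 with BTC. Schwann cell and nerve markers, 7 of 8 measured, differed by 0.019 ± 0.05 between conditions. Their r was 0.30 with BTC and 0.41 with ERBB3, and that of the endothelial list with ERBB3 was 0.40. Of the 7 Schwann cell and nerve markers, NGFR was called higher in HS (0.49 ± 0.155 log2, limma adjusted p = 0.027) and 0 were called lower.

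Of 6 keratinocyte and epithelial markers 4 were measured, at a mean between 6.81 and 7.61 log2 over all arrays, and KRT14 and EPCAM had no kept probe. CDH1 was called higher in HS with its leading probe, while its other probe had the opposite sign. Between breeds, 3 of 6 endothelial markers (KDR, CLDN5 and PECAM1) and 2 of 7 fibroblast markers (COL3A1 and DCN) were lower in Creole than in Large White pigs, and the means of these lists differed by -0.36 ± 0.08 and -0.34 ± 0.09 log2. The lists of smooth muscle and pericyte, satellite cell and adipocyte markers differed by 0.0060 ± 0.04, -0.012 ± 0.04 and 0.14 ± 0.10 log2 between HS and TN. Of 4 measured satellite cell markers, PAX7 was called lower in HS (-0.30 ± 0.07, limma adjusted p = 0.0029) and 0 were called higher. CALCR and SDC4 of that list had the opposite sign. The fibroblast list and the keratinocyte and epithelial list differed by 0.18 ± 0.07 and 0.14 ± 0.05 log2 between HS and TN. The part of these cell types in the values of BTC, EGFR and ERBB3 was not tested.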

How the data were processed

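Muscle RNA of 35 pigs was measured on 1-colour Agilent porcine arrays (Feature Extraction 10.10.1.1). From the deposited scanner files, linear and not yet normalised, the authors' median intensity per spot was used, with their flags, and other signals for alternatives. A deposited table of log2 values of 40649 probes, quantile-normalised by the authors, served as an alternative. All 35 columns matched their own array best (lowest r = 0.999978).

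Control spots were removed (60306 spots of 60305 probes remained), the median intensity was quantile-normalised between arrays, log2 was taken, 105 outlier-flagged spots were set to missing, and spots of a probe were averaged. A probe was kept if it passed the background flag on 75% or more of the arrays in any group (41517). Genes were named through accessions, then names, in the Sscrofa11.1 table, used for names and gene order only (24482 probes, 40.6%). Array number limits the precision.

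limma 3.58.1 in R 4.3.3 fitted breed and temperature, or 1 mean per group for within-breed values and the interaction, over all 35 arrays, with Benjamini-Hochberg adjustment over all kept probes at 0.05. Pen, slaughter day and parents, random terms of the study's model, could not be fitted without labels for them. The fits were tested on simulated data. The leading probe of a gene was the kept probe of highest mean. The genes of 1 list are counted in the totals but not reported here singly. List genes were named where called, up to 3 per list with the smallest p, beside uncalled genes named for their known role. For likeness to BTC the 5 highest and the 5 lowest r were named. Members, lists and tests were chosen with earlier results of these data known. Alternatives covered scaling (75th percentile, median, spike-in controls), normexp background correction with an offset of 50, the deposited table, filters, outlier spots, slide, array weights, brightness, 1 mean per group, TN arrays alone and leaving out each array.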

Additional observations from a re-analysis of the deposited data

How the results depend on the processing

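The 13 alternatives and the 35 fits without 1 array gave the following. The number of pathway list genes called between HS and TN was 9, ran from 5 with array brightness as a covariate to 13 with array weights, and from 7 to 11 without 1 array. Member probes called between Creole and Large White numbered 1, but 0 in the TN arrays alone, and from 0 to 1 without 1 array, with 0 only without Creole HS replicate 3. The counts of member probes called for F1 and for the interaction, 0 as reported, were 0 throughout. The BTC difference between HS and TN with probe A_72_P321068 ran from -0.84 to -0.66 log2 over the alternatives and from -0.85 to -0.72 without 1 array. With probe A_72_P410733 it ran from -1.11 to -0.92 and from -1.13 to -1.01. Of 1896 values of single genes or probes, 40 lost their call. The sign turned under at least 1 of these fits for 10 results, of which 0 had an adjusted p below 0.05 as reported (the HS minus TN values of members have no test), among them EGFR between HS and TN, BTC in F1 against the midpoint, and probe A_72_P410733 between Creole and Large White. Among the lost calls, ADAM9 lost its call without any 1 of 11 arrays, with differences of 0.26 log2 or more, and SOCS5 under the median (-0.13) and spike-in (-0.049) scalings. With array brightness as a covariate ARAF (-0.11), CBL (0.21), NRG4 (-0.40) and ADAM9 (0.28) were no longer called, and the spike-in scaling ended the HS call of EGF (-0.27) and that of ARAF (-0.17). The causes were not tested. No paired analysis was possible because the replicate numbers follow the order of deposition and pair no animals. The number of arrays per group left wide intervals for breed differences in the BTC change, and probes near background, such as that of TGFA, carry less precise differences.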
